A study of Mus musculus with 2 samples.

Results

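The microRNA genes Mir532, Mir188, Mir362, Mir501 and Mir500 lie in 1 intron of Clcn5 on the mouse X chromosome and are described here in C2C12 myocytes. They were chosen by name and host gene in the GENCODE M21 annotation, and they are 5 of the 2202 microRNA genes in the deposited count tables. All 5 were detected, meaning at least 10 counts in each library. C2C12 is a myoblast line established from crush-injured thigh muscle of C3H mice and obtained from ATCC, and the cells had spent 72 h in differentiation. There was 1 group of 2 small RNA libraries, numbered by the labels as biological replicates 1 and 2, with no second condition. Both libraries come from the same single cell line, and nothing in the labels says that separate cultures were differentiated, so the spread between them may be technical in part. Undifferentiated C2C12 cells were not analysed here. The cluster was picked with counts of these libraries already known, so its levels are given as a description.

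A microRNA gene is transcribed into a precursor that folds into a hairpin. The hairpin is cut by the nuclease complexes Drosha and Dicer into a short duplex, of which the arm from the 5′ side (5p) or from the 3′ side (3p) is loaded into an Argonaute protein. The loaded strand finds messenger RNAs mainly through its seed, bases 2 to 8. Clcn5 encodes ClC-5, a chloride/proton exchanger of endosomes that is best known from the kidney tubule, where its loss causes Dent disease. Within muscle, miR-501 has been described in activated myogenic progenitors, and miR-188 is known from the choice of bone marrow stromal cells between bone and fat.

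The annotated mature arms are shown because some members of this locus share seeds. They are from RefSeq (GRCm38.p6, all on the minus strand of chromosome X), written 5′ to 3′ with the seed in capitals. RefSeq entries were found for all 5 hairpins and for 9 mature arms, and miR-532-5p had no entry.
miR-532-3p: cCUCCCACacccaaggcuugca
miR-188-5p: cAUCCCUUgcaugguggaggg
miR-188-3p: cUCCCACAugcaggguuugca
miR-362-5p: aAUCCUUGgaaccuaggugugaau
miR-362-3p: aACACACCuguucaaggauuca
miR-501-5p: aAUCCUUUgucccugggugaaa
miR-501-3p: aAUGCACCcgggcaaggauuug
miR-500-5p: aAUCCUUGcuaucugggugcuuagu
miR-500-3p: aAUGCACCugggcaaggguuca

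Among these arms, miR-500-3p and miR-501-3p had the same seed, AUGCACC. With positions counted from 1 at the 5′ end and the miR-501-3p base written first, they differed at C9U, A18G, U21C and G22A, 4 of the 22 positions compared. The seed AUCCUUG was shared by miR-362-5p and miR-500-5p, and miR-501-5p departed from it only by G8U within the seed (the miR-362-5p base first). The miR-188-3p seed lay inside miR-532-3p as well, shifted by 1 base. No listed arm of Mir532 or Mir188 had the same seed as an arm of another member. Outside the locus, the miR-188-5p seed also occurred in an arm of Mir7061, which had 2 counts in replicate 1 and 1 in replicate 2. The seed of miR-362-3p recurred in an arm of Mir329, which had 0 counts in both libraries. No detected microRNA gene outside the locus carried a listed arm with any of these seeds.

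Mir532 and Mir362 are shown as whole hairpins because their ratios between the libraries lay at opposite ends of the cluster. Capitals mark the annotated arms, which are the 3p arm for Mir532 and both arms for Mir362.
Mir532: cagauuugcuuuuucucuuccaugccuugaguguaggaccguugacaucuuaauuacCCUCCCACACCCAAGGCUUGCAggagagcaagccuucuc
Mir362: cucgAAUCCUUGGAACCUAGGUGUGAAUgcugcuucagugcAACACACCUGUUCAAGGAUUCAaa
The deposited counts cover a whole hairpin and do not separate its arms, so no count belongs to a seed or to a mature arm.

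Clcn5 (ENSMUSG00000004317.14, mm10, chromosome X, 7153810 to 7319358) is read from the minus strand, as are all 5 hairpins. The most upstream hairpin was Mir532 (ENSMUSG00000070139.1), at 7248402 to 7248497. Mir188 (ENSMUSG00000065398.1) followed 345 bases downstream, at 7247989 to 7248056. After a gap of 5942 bases came Mir362 (ENSMUSG00000070100.1), at 7241982 to 7242046. Mir501 (ENSMUSG00000076251.1) lay another 630 bases on, at 7241243 to 7241351. The last hairpin, Mir500 (ENSMUSG00000070108.2), lay 3468 bases further, at 7237683 to 7237774, so the hairpins spanned 10815 bases. All 5 fell inside a single intron of 103648 bases (7213011 to 7316658). It belonged to 3 of the 5 annotated Clcn5 transcripts, which begin at the far upstream start of the gene. The other two transcripts start downstream of the cluster and do not include it. No other annotated microRNA gene lay inside Clcn5.

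Mir532 had the highest level of the cluster, with 68342 counts in replicate 1 and 54167 in replicate 2. Scaled to 1000000 counts assigned to microRNA genes (CPM), this was 9014 in replicate 1 and 5491 in replicate 2, a mean of 7253 ± 2492 CPM (SD, n = 2). It ranked 20 by mean CPM. Ranks and shares here hold only for uniquely mapped reads: 22.0% of reads in replicate 1 and 17.9% in replicate 2 were multi-mapped and assigned to no gene, so multi-copy microRNAs can stand too low. Replicate 1 was the higher library for this hairpin, and both values lay above those of every other member in either library.

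Mir188, the close neighbour of Mir532, had 35654 counts in replicate 1 and 40800 in replicate 2. Its level was 4703 and 4136 CPM, a mean of 4419 ± 401 (SD, n = 2), at rank 26. The libraries were close for this hairpin, with replicate 1 slightly higher, and its range did not overlap that of Mir532 or of any downstream member.

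The 3 downstream hairpins were several times lower and close to each other. Mir500 had 9470 counts in replicate 1 and 13561 in replicate 2, which is 1249 and 1375 CPM (mean 1312 ± 88.7, SD, n = 2), at rank 56. Mir501 had 8416 and 12355 counts, or 1110.1 and 1252 CPM (mean 1181 ± 101, SD, n = 2), at rank 61. These are the hairpins whose 3p arms share a seed, and both were higher in replicate 2. Mir362 had 6345 counts in replicate 1 and 14295 in replicate 2, or 837 and 1449 CPM (mean 1143 ± 433, SD, n = 2), at rank 64. It was the lowest member in replicate 1 and stood above both Mir500 and Mir501 in replicate 2.

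By mean CPM the order was therefore Mir532, Mir188, Mir500, Mir501 and Mir362. Across the libraries the ranges of Mir500 and Mir501 overlapped, and that of Mir362 overlapped both. Within each library Mir500 stood above Mir501, by 1.13 times in replicate 1 and 1.10 times in replicate 2. The place of Mir362 among these 3 did not hold, being below both in replicate 1 and above both in replicate 2. A microRNA read spans a whole mature strand, and the levels were therefore not divided by hairpin length. Reads are also captured unequally by ligation and amplification, and how far that shapes the order of the members was not tested.

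**Figure D1:**
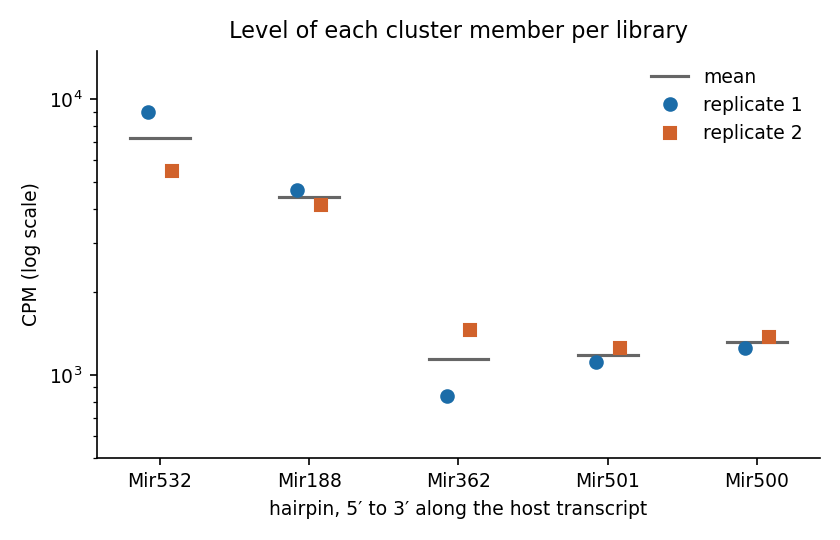
Level of each hairpin per 1000000 assigned counts (CPM, log axis), arranged 5′ to 3′ along the host transcript. Circles are replicate 1, squares replicate 2 and bars the mean of both; Mir532 and Mir188 lie between 4136 and 9014 CPM and the downstream hairpins between 837 and 1449.

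Together the members had 128227 counts in replicate 1 and 135178 in replicate 2, which is 1.69% and 1.37% of the assigned counts (1.53% ± 0.227, SD, n = 2). They made up 27.2% of all counts from X-linked microRNA genes in replicate 1 and 31.6% in replicate 2. Among 128 detected microRNA genes that lie in introns of protein-coding genes on the host's strand, Mir532 ranked 5, Mir188 7, Mir500 18, Mir501 20 and Mir362 22 by mean CPM. Summed by host gene, Clcn5 stood second of 110 hosts with 15308 ± 2271 CPM (SD, n = 2), after Ppargc1b with 112998 CPM from the single hairpin Mir378a. This order counts only hairpins outside every annotated exon of the host. The chain Mir23b to Mir24-1, for which not all hairpins met that rule, summed to 19657 CPM, above the Clcn5 cluster. Sfmbt2 was the host with more detected intronic microRNA genes, 6 against the 5 of Clcn5, but they summed to 218 CPM. That sum holds only for uniquely mapped reads, so multi-copy microRNAs among them can stand too low. Levels of host messenger RNAs were not analysed here.

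The pair at the upstream end took most of the cluster. Mir532 and Mir188 held 81.1% of the cluster's counts in replicate 1 and 70.3% in replicate 2. The share of Mir532 alone was 53.3% in replicate 1 and 40.1% in replicate 2, while that of Mir188 was 27.8% and 30.2%. Mir362 went the other way, with 4.95% in replicate 1 and 10.6% in replicate 2. The shares of Mir501 (6.56% and 9.14%) and Mir500 (7.39% and 10.03%) were likewise larger in replicate 2.

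**Figure D2:**
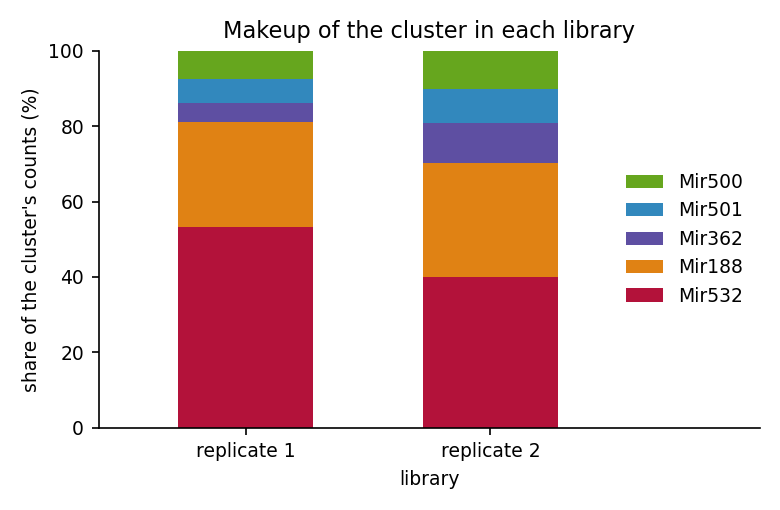
Share of the cluster's summed counts (%, vertical axis) held by each hairpin in each of the 2 libraries. Mir532 takes 53.3% of replicate 1 and 40.1% of replicate 2, and Mir362 takes 4.95% and 10.6%.

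The only contrast these data allow is between the replicates, and it compares the libraries, not conditions. An exact two-sided binomial test of the counts was run on all 314 detected genes with Benjamini-Hochberg adjustment, and 66.6% of them had an adjusted p below 0.05. All 5 members were among them, and against that background passing the test sets no member apart. At a minimum of 100 counts in each library, which all 5 members met, 166 of 187 tested genes passed. Mir532 and Mir188 were higher in replicate 1, a direction called for 38.2% of detected genes. Mir362, Mir501 and Mir500 were higher in replicate 2, a direction called for 28.3%. Intervals below are exact 95% intervals and cover counting error only, since reads without molecular identifiers are not independent molecules.

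Mir532 was 1.64-fold higher in replicate 1 (interval 1.62 to 1.66), with an adjusted binomial p too small to be represented and written as 0. The ratio of Mir188 was 1.14 (1.12 to 1.15, adjusted exact binomial p = 1.67e-69). Its call depended on the scaling, because Mir206, the leading microRNA of these libraries, made up 34.1% of the assigned counts of replicate 1 and 41.7% of those of replicate 2. Without Mir206 in the library totals, the log2 ratio of Mir188 was 0.0088 with an adjusted exact binomial p of 0.477. Mir362 was 1.73-fold higher in replicate 2 (1.68 to 1.78, adjusted exact binomial p = 8.76e-307). Mir501 was 1.13-fold higher in replicate 2 (1.10 to 1.16, adjusted exact binomial p = 2.91e-17) and Mir500 1.10-fold higher (1.07 to 1.13, adjusted exact binomial p = 1.77e-12). With these totals no member differed by more than 2-fold, as 22.0% of all detected genes did. That background is not matched for level, as the median of mean CPM was 1312 for the members and 53.1 for all detected genes. With a GC trend removed, as given below, the log2 ratio of Mir362 was −1.14, which is past 2-fold. The median log2 ratio, replicate 1 over replicate 2, was −0.14 for the members and 0.09 for all detected genes. In absolute value the median was 0.19 for the members and 0.51 for all. The 0.19 is the ratio of Mir188 alone and holds for these totals only. Without Mir206 in the totals, the other members' log2 ratios were 0.54 for Mir532, −0.31 for Mir500, −0.35 for Mir501 and −0.97 for Mir362.

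**Figure D3:**
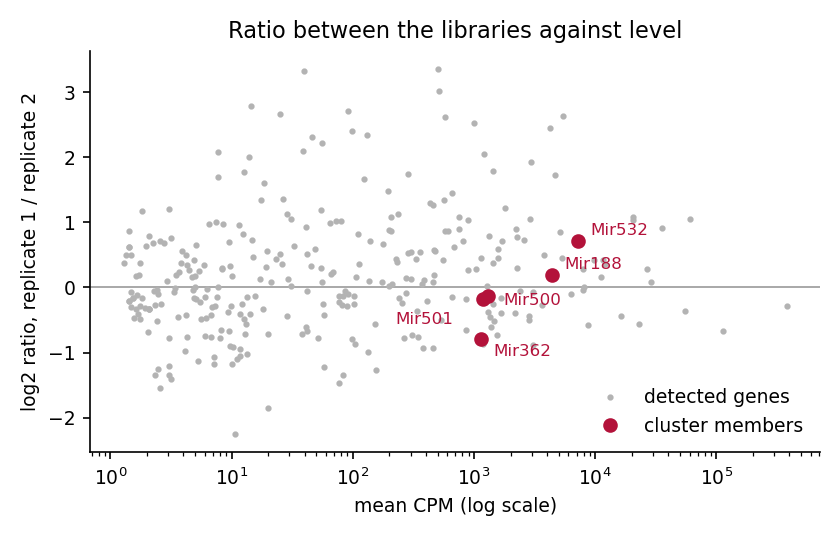
Log2 ratio of replicate 1 over replicate 2 (vertical axis) against mean CPM (log axis) for the 314 detected genes in grey and the cluster members in red. The members' log2 ratios run from −0.79 for Mir362 to 0.72 for Mir532, and many genes of similar level lie further from 0.

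Ratios between members within a library do not depend on how the libraries are scaled. The Mir532 count was 10.8 times the Mir362 count in replicate 1 and 3.79 times in replicate 2, a 2.84-fold change (95% interval 2.75 to 2.93). Mir532 exceeded its neighbour Mir188 by 1.92 times in replicate 1 and 1.33 times in replicate 2, a change of 1.44-fold (1.42 to 1.47). Mir362 was 0.754 times Mir501, the hairpin 630 bases away, in replicate 1 and 1.16 times in replicate 2. The Mir501 and Mir500 counts kept nearly the same proportion, with 0.889 in replicate 1 and 0.911 in replicate 2. The change between the libraries for this pair was 0.975-fold (95% interval 0.939 to 1.01), the only interval among the 10 pairs of members that included 1. For the other 9 pairs of this intron the proportion differed between the libraries by more than counting error. With 1 pair of libraries, the variation of these proportions across cultures and across preparations cannot be told apart.

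Sequence copies could move counts between hairpins if reads fit more than 1 place. No member shared a stretch of 20 bases with any other annotated microRNA hairpin, and the longest stretch shared with another hairpin was 14 bases, between Mir501 and Mir500. That pair was also the most alike over the whole hairpin, with 67.3% identity in a global alignment against 42.7% to 57.9% for the other pairs. None of the 9 listed arms occurred whole in another annotated hairpin. Matches elsewhere in the genome were not tested. On the strand opposite the members there were 0 counts in both libraries, and the counts of either strand were identical to those of the sense strand for every member. A count of 0 allows up to 3 counts, or 0.396 CPM in replicate 1 and 0.304 CPM in replicate 2.

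The GC content of the hairpins was 46.2% for Mir362, 49.0% for Mir532, 50.5% for Mir501, 53.3% for Mir500 and 55.9% for Mir188, around a median of 51.5% over the detected genes. Across the 314 detected genes the log2 ratio between the libraries was lower at higher hairpin GC, with a Spearman rho of −0.28 and a Pearson r of −0.27. Genes of the same libraries are not independent, and no p is given. Mir362 and Mir532 had the lowest GC of the members and opposite ratios, and whether GC shapes the members' ratios was not tested. With a linear GC trend removed, the log2 ratios were 0.43 for Mir532, 0.07 for Mir188, −0.31 for Mir500, −0.42 for Mir501 and −1.14 for Mir362.

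Other X-linked clusters gave a scale for this spread, without a test. The cluster of Mir322, Mir351 and Mir503, microRNAs that rise when myoblasts leave the cell cycle, had 7 detected genes summing to 37154 CPM in replicate 1 and 25601 in replicate 2. Its log2 ratios ran from −0.57 for Mir351 to 1.60 for Mir450-1, a range of 2.17. Mir450-1 and Mir450-2 each share sequence with another hairpin, and without them the range was 1.65. The Clcn5 cluster had a range of 1.51. For the pair of Mir221 and Mir222, tied to proliferating cells, the log2 ratios were 1.05 and 0.20. The Mir106a cluster, a relative of miR-17-92, had 2 of its 6 genes detected and 8.97 and 8.41 CPM in all. These counts are uncertain, since Mir92-2 and Mir19b-2 each share sequence with another hairpin. The highest detected member exceeded the lowest 10.8 times in replicate 1 and 4.38 times in replicate 2 in the Clcn5 cluster. In the Mir322 cluster these factors were 986 and 1411, or 98.6 and 98.3 without Mir450-1 and Mir450-2. Chains of at least 3 detected genes on a strand, with gaps of at most 10000 bases, numbered 11. Among them the Clcn5 cluster ranked 4 by summed CPM and 8 by the range of ratios. These ranks are not matched for level or for the number of genes, which ran from 3 to 7. Genes that share sequence with another hairpin were kept in the chains.

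**Figure D4:**
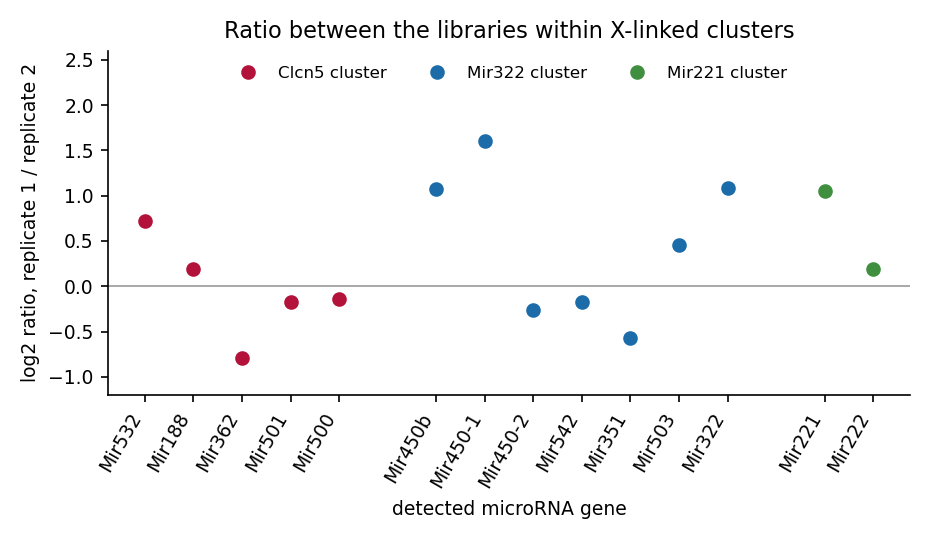
Log2 ratio of replicate 1 over replicate 2 for each detected gene of the X-linked Clcn5, Mir322 and Mir221 clusters. The ratios of the Clcn5 members lie on both sides of 0, from −0.79 to 0.72, as do those of the Mir322 cluster, from −0.57 to 1.60.

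The genes whose levels in both libraries lay nearest to each member came from other chromosomes. Nearness was the Euclidean distance in log2(CPM + 1) over the 2 libraries, so it compares levels only. For Mir532 they were Mir27b (8643 CPM in replicate 1 and 7106 in replicate 2, uncertain because it shares sequence with another hairpin) and Mir100 (8135 and 8073). Mir188 lay nearest to Mir29a (6134 and 4489) and Mir30d (4375 and 3107). Mir362 was nearest to Mir671, which like it was higher in replicate 2 (839 and 1529 CPM), at a distance of 0.077. Mir181d (1083 and 1237 CPM) was the second gene for Mir362 and the first for Mir501. Mir423 (1282 and 1260.4 CPM) was the second for Mir501 and the first for Mir500, followed for Mir500 by Mir125a (1137 and 1477).

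Replicate 1 had 15349205 reads and replicate 2 had 18450359, of which 49.4% and 53.5% counted toward microRNA genes on the sense strand. Of the muscle markers, 7 of 9 were detected, with a summed 355315 and 428275 CPM that came mostly from Mir206. The undetected genes were Mir133a-1 and Mir133a-2. Like Mir1a-1 and Mir1a-2 they lay between 1.01 and 4.22 CPM, and multi-copy microRNAs such as these can stand too low. Blood markers had 3 of 6 genes detected and 756 and 455 CPM, mostly Mir155 in replicate 1 and Mir155 and Mir142 in replicate 2. Epithelial markers had 1 of 6 detected and 8.71 and 5.47 CPM, with Mir200a and Mir429 at 0. The 6 neural markers are copies of miR-124 and miR-9. Their counts of 0 in replicate 1 and 1 in replicate 2 (Mir9-3) say nothing of the level of these microRNAs, since reads that fit several copies were assigned to none.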

How the data were processed

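Small RNA libraries, of fragments below 30 nucleotides per the labels, were analysed from 2 biological replicates of C2C12 myocytes. The authors deposited whole-number read counts per microRNA gene for each library, not normalized as far as the values show. Per the deposited notes, reads were placed on mm10 with annotation release M21 of GENCODE, and per the labels' protocols adapters were trimmed. No source used here names the aligner or the counter. The tables have 3 count columns (either strand, sense, opposite) in the layout of STAR gene counts, so counts were read as uniquely mapped. The sense column was used. The 4 entries without a gene, 50.6% and 46.5% of reads, stayed out of totals and tests.

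CPM, ratios, exact binomial tests and Clopper-Pearson intervals were computed with scipy 1.17.1. Intervals of ratios between members are those of sample odds ratios. All 2202 identifiers matched M21. The binomial script was tested on simulated data with counting error as the only noise. That checks the code and not how the test behaves on these libraries. With 1 group, edgeR (4.0.16) and DESeq2 (1.42.0) served only for alternative scaling factors. The members, lists and rules were chosen with earlier results of these data known. Named genes are the members, the 2 genes nearest each member in level, seed partners, the genes of the other X-linked clusters and the markers. Mir378a, Mir23b and Mir24-1, and the hosts Ppargc1b and Sfmbt2, were named as a result turned on them. The GC trend and the chains of genes were added after the values were seen.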

Additional observations from a re-analysis of the deposited data

How the results depend on the processing

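The summed level of the cluster, 15308 CPM, was 7840.3 with all reads as denominator and 24577 without Mir206 in the totals, because the denominators differ; leaving out either replicate gave 13702 to 16913. The members' median log2 ratio of −0.14 stayed negative under every setting tried. This median is the ratio of Mir500 alone, and a change of library totals shifts all members alike. In the main setting the cluster's sum went the other way, with 16913 CPM in replicate 1 and 13702 in replicate 2. The median was −0.22 with either-strand counts, where the members' counts were the same and only the library totals differed. It was −0.20 with DESeq2 size factors, −0.25 with all reads and −0.31 without Mir206. With the GC trend removed, a setting chosen after seeing the data, it was −0.31. Of 25 recomputed ratios of single members, 24 kept their direction and their call; the exception was Mir188 without Mir206 in the totals (adjusted exact binomial p = 0.477). At a minimum of 100 counts, 166 of 187 tested genes passed the test, and at a minimum of 1, 227 of 555 did. The other settings gave counts between these, and the share that passed depended on the minimum. In replicate 2 alone, 3 members changed place in the order of levels. No paired analysis was possible because the series holds 1 group. Arms, host transcript levels and other conditions were beyond these counts.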
